A study of Homo sapiens with 12 samples.

Results

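The comparison described here sets LNCaP cells transfected with a plasmid for LSD1+8a against LNCaP cells transfected with the empty vector. Its members are 3 libraries of each kind, so 6 of the 12 RNA-seq libraries in the study, chosen by their labels alone. LNCaP (clone FGC) is an androgen-responsive human prostate cancer line with luminal features. All groups shared the same handling: cells at passage 8 in RPMI 1640 with 10% fetal bovine serum, transient transfection with Lipofectamine 2000, a change of medium after 6 hours, and sequencing of polyadenylated RNA with a TruSeq kit. The other groups, also of 3 libraries each, received a plasmid labelled as coding for LSD1 or a plasmid for the splicing factor SRRM4. Nothing in the labels ties a group's libraries to separate cultures or transfections, so the p-values below measure only the spread among libraries, and that spread may be technical. The labels give neither the time of harvest nor the share of cells that took up plasmid. In bulk RNA a change in fewer cells and a smaller change in every cell cannot be told apart.

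LSD1, encoded by KDM1A, is a flavin-dependent demethylase of histone H3 that works with CoREST and histone deacetylases, mostly at enhancers and promoters. Exon 8a is a microexon that neural cells splice into KDM1A under the control of SRRM4, and the resulting protein has been studied in neurons and in neuroendocrine prostate cancer. The gene group that moved most in this comparison is that of interferon-stimulated genes. These are normally switched on when sensors of viral nucleic acid trigger interferon secretion, or when interferon receptors signal through JAK kinases to a complex of STAT factors with IRF9. That complex binds a short element in the promoters of antiviral genes.

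The libraries held 12750609 to 13570740 counts in the empty-vector group and 12110101 to 13359671 in the LSD1+8a group, over 13001 genes. All 15 LNCaP and luminal prostate markers in the list used were measured, and none was called different between the groups. KLK3, the gene for prostate-specific antigen, stood at 3139 ± 36.9 TPM (SD, n = 3; a transcript level scaled to gene length and library size) with empty vector and 3132 ± 91.6 TPM with LSD1+8a. Of 46 markers of basal epithelium, fibroblasts, leukocytes, endothelium and embryonic kidney lines, 10 were in the table and none was called. Mitochondrial transcripts made up 7.21 to 7.40% of counts with empty vector and 6.64 to 7.12% with LSD1+8a.

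KDM1A itself checks the labels for raised LSD1 transcript, though not for exon 8a. Its normalised read count, scaled to library size (CPM), was 94.0, 95.2 and 93.7 in the empty-vector libraries and 2608, 1983 and 2211 in the LSD1+8a libraries. The LSD1+8a libraries lay 24.0-fold above the controls, with a log2 fold change of 4.59 ± 0.12 (SE) and an adjusted p of 9.1e-08 in edgeR's quasi-likelihood test with Benjamini-Hochberg adjustment over all genes. The count is per gene, so transcripts of the plasmid and of the cell's own gene, and forms with and without the extra exon, are summed. The LSD1 libraries held 515, 587 and 519 CPM of KDM1A, between the other groups, and the SRRM4 libraries held 96.9, 92.0 and 100.1 CPM.

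Across all genes the response was narrow. At an adjusted p under 0.05, 37 genes rose, 0.285% of those tested, and 8 fell, 0.0615% of those tested. Of the rises 19 were larger than 2-fold, against 1 of the falls. On the log2 scale called rises had a median of 1.01 and called falls a median of -0.26, while all genes had a median of 0.00092 and a 5th to 95th percentile range of -0.16 to 0.19. In every called gene the 3 libraries of one group lay wholly on one side of the other group's. That alone held for 6.12% of all genes upward and 5.64% downward. At an unadjusted p under 0.05 there were 467 higher and 419 lower genes, or 6.81% of all genes. Of the 37 rises, 27 belonged to the interferon gene lists and 10 did not.

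**Figure D1:**
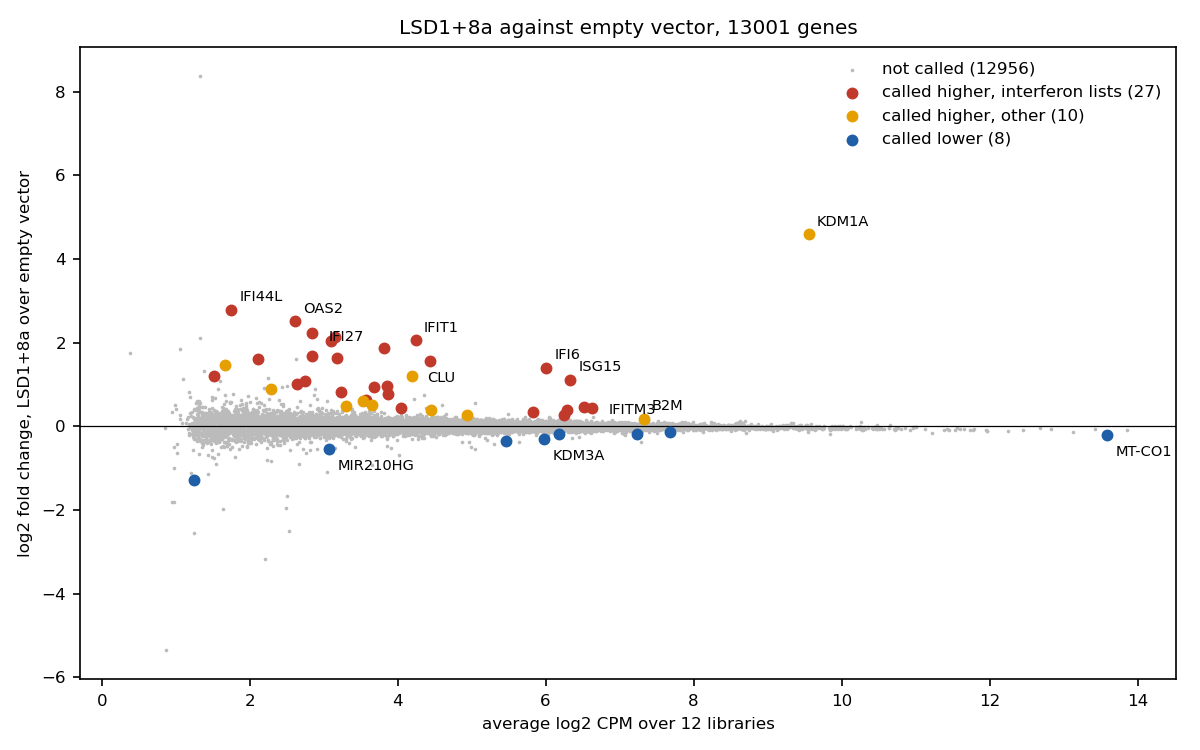
Log2 fold change of LSD1+8a over empty vector (y axis) against the average log2 CPM over 12 libraries (x axis) for 13001 genes, 1 point a gene. The 27 rising interferon-list genes (red) fill the upper left, and KDM1A is the highest called gene at 4.59. The 8 falls (blue) lie between 0 and -0.54 apart from 1 at -1.29. Genes that were not called (grey) reach 8.38 and -5.35.

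The interferon lists held 93 measured genes. Of these 27 rose, none fell and 66 were not called, 83 of the 93 estimates were above 0, and the median log2 fold change was 0.17 against 0.00092 for all genes. At an unadjusted p under 0.05, 49 were higher and none was lower, against 467 higher and 419 lower of all 13001 genes. The lists were chosen with results of these data known, so the counts describe them and test nothing. None of 13 listed interferon genes (type I, II and III) was in the table. Absence from the deposited table of 13001 genes does not show that they were silent.

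In the 2′-5′ oligoadenylate pathway 4 of the 5 measured genes rose. OAS2, a synthetase that makes this messenger on binding double-stranded RNA, measured 1.89, 1.64 and 2.05 CPM with empty vector and 11.4, 10.5 and 10.1 CPM with LSD1+8a. The groups were far apart, with a log2 fold change of 2.51 ± 0.19 (SE, edgeR adjusted p = 1.13e-11). OASL, a relative that has lost the enzyme activity and binds the sensor RIG-I, measured 6.95, 4.70 and 6.32 CPM against 23.9, 20.9 and 20.9 CPM, a rise of 1.88 ± 0.11 on the log2 scale. OAS1 rose by 1.62 ± 0.13 and OAS3 by 0.46 ± 0.05.

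The IFIT genes encode proteins that bind foreign 5′ ends of RNA. IFIT1 measured 5.92, 7.23 and 8.75 CPM with empty vector and 35.9, 27.0 and 28.7 CPM with LSD1+8a, a log2 fold change of 2.06 ± 0.15 (SE, edgeR adjusted p = 7.63e-07). IFIT3 measured 3.63, 2.61 and 3.12 CPM against 13.1, 12.3 and 13.4 CPM, and IFIT2 measured 8.92, 8.57 and 11.3 CPM against 32, 26.9 and 25.2 CPM. In both genes every LSD1+8a library lay above every control, with log2 fold changes of 2.05 ± 0.13 and 1.55 ± 0.14. RSAD2, the gene for viperin, which makes a chain-terminating nucleotide, rose by 1.67 ± 0.17 from 2.05, 2.53 and 2.05 CPM to 8.09, 5.39 and 7.71 CPM. CMPK2, the nucleotide kinase next to RSAD2, had separate groups in CPM and a log2 fold change of 0.62 ± 0.17, but was not called (edgeR adjusted p = 0.16). Its TPM were level (3.82 and 3.78). IFIT5 was not called either (0.17 ± 0.15). In all, 4 of 6 measured members of this list rose.

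Membrane, vesicle and mitochondrial effectors formed the longest list, with 8 of 21 measured members called higher and none lower. IFI44L, an antiviral gene of poorly defined function, had the largest fold change of any called gene after KDM1A. It measured 0.71, 0.75 and 1.37 CPM with empty vector and 6.44, 6.98 and 6.31 CPM with LSD1+8a, a 6.91-fold difference (log2 2.79 ± 0.26, edgeR adjusted p = 9.13e-09). IFI27, a mitochondrial and nuclear membrane protein, measured 2.92, 2.61 and 2.51 CPM against 13.6, 11.4 and 13.0 CPM. IFI27 thus rose by 2.24 ± 0.14 on the log2 scale (edgeR adjusted p = 1.64e-13). IFITM1, which blocks fusion of viruses with cell membranes, measured 3.39, 3.28 and 3.58 CPM against 16.6, 15.1 and 13.1 CPM (log2 2.13 ± 0.14). The related IFITM3, which acts in endosomes, started higher, at 82.8, 80.5 and 85.5 CPM, and reached 118, 110 and 111 CPM (0.45 ± 0.04). IFITM2, a near copy of both, was not called (0.09 ± 0.07), and how reads shared by the IFITM genes were divided is not given in the sources used here. BST2 (tetherin), which holds budding virions at the cell surface, rose by 1.61 ± 0.18. IFI6, an inner mitochondrial membrane protein, rose by 1.40 ± 0.08, from 31.8, 34.7 and 40.9 CPM to 98.0, 86.4 and 98.9 CPM. IFI44 rose by 0.83 ± 0.14. TRIM22, a ubiquitin ligase that restricts retroviruses, rose by 1.21 ± 0.24, but its adjusted p was 0.0747 without empty-vector replicate 3 and 0.115 without LSD1+8a replicate 3. MX1, a classical marker of interferon exposure, was not called and its groups overlapped (4.58 ± 0.89 against 5.85 ± 0.64 CPM, SD, n = 3; log2 0.35 ± 0.19 SE, edgeR adjusted p = 0.75).

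ISG15 is a ubiquitin-like modifier that antiviral enzymes attach to newly made proteins. It measured 48.0, 49.5 and 50.7 CPM with empty vector and 112, 105 and 104 CPM with LSD1+8a. This rise had the lowest p of all genes (log2 fold change 1.11 ± 0.04 SE, edgeR adjusted p = 1.53e-19), and the groups were separated by many times their spread. HERC5, the ligase that attaches ISG15, rose by 1.08 ± 0.14, from 4.26, 4.32 and 4.11 CPM to 9.51, 7.93 and 9.43 CPM. Its relative HERC6 rose by 0.43 ± 0.09, with an adjusted p of 0.275 without LSD1+8a replicate 3, 0.11 without empty-vector replicate 3, 0.0794 without empty-vector replicate 1 and 0.104 in DESeq2. The activating enzyme UBA7 (log2 0.37 ± 0.13), the conjugating enzyme UBE2L6 (0.68 ± 0.19, edgeR adjusted p = 0.17) and the deconjugating protease USP18 (0.13 ± 0.07) were not called, although in each the LSD1+8a libraries lay above all controls. In this list 3 of 6 members rose.

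**Figure D2:**
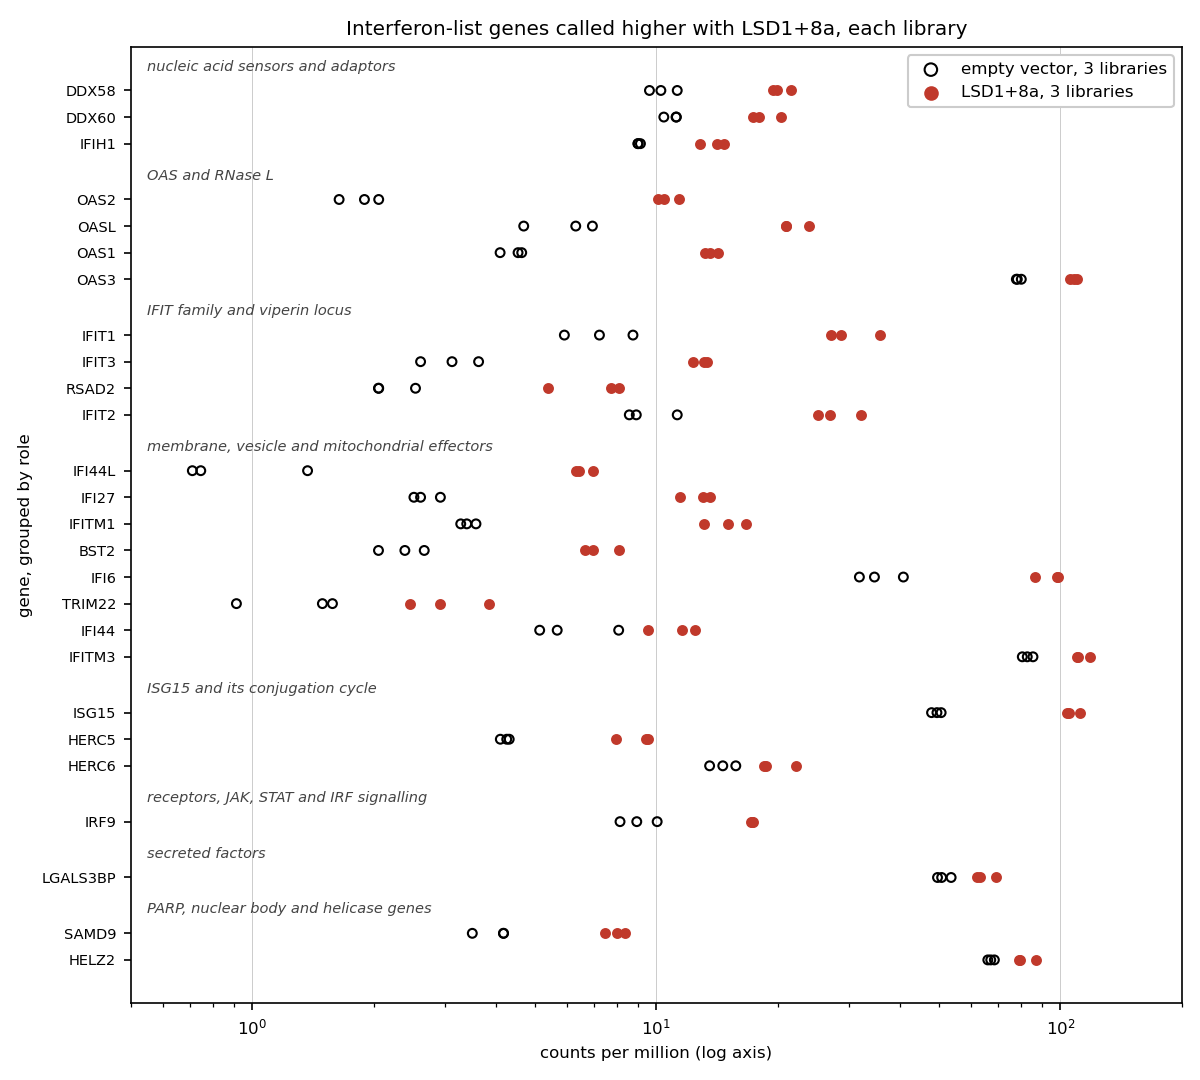
CPM in each of the 6 libraries (log axis) for 26 of the 27 interferon-list genes called higher, grouped by role; open circles are the 3 empty-vector libraries and filled circles the 3 LSD1+8a libraries. In each row the filled points lie to the right of the open ones; ISG15 moves from about 50 to above 100 CPM, while OAS3, IFITM3, LGALS3BP and HELZ2 move by less.

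Among nucleic acid sensors and their adaptors, 3 of 11 measured members rose. DDX58 (RIG-I), which recognises 5′-triphosphate RNA, measured 10.3, 9.61 and 11.3 CPM with empty vector and 21.6, 19.4 and 19.8 CPM with LSD1+8a. The groups did not overlap (log2 fold change 0.97 ± 0.09 SE, edgeR adjusted p = 4.34e-09). IFIH1 (MDA5), which senses long double-stranded RNA, measured 9.0, 9.02 and 9.13 CPM against 14.7, 12.8 and 14.1 CPM, a rise of 0.62 ± 0.10. DDX60, a helicase that aids RIG-I, rose by 0.76 ± 0.10. Their common adaptor MAVS was level, with overlapping groups at 140, 133 and 123 CPM and 133, 124 and 132 CPM (log2 -0.03 ± 0.04). The third RIG-I-like receptor DHX58 (0.27 ± 0.17), the kinase EIF2AK2 (PKR, 0.17 ± 0.05, edgeR adjusted p = 0.34), TLR3 (0.57 ± 0.18), ZNFX1 (0.15 ± 0.05), ADAR (0.05 ± 0.03) and TRIM25 (0.04 ± 0.03) were not called. DDX60L, the neighbour of DDX60, had a log2 fold change of 0.74 ± 0.20 in counts without a call, while its mean TPM were 1.72 and 1.63.

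Of the receptors, kinases and transcription factors that pass on the interferon signal, 2 of 20 measured members rose. IRF9, the DNA-binding partner of STAT factors, measured 8.13, 8.94 and 10.0 CPM against 17.4, 17.1 and 17.2 CPM (log2 fold change 0.93 ± 0.10 SE, edgeR adjusted p = 1.06e-07). STAT2, which IRF9 binds, stood at 73.5, 76.8 and 74.4 CPM against 78.9, 81.5 and 81.0 CPM and was not called (0.10 ± 0.04, edgeR adjusted p = 0.63). JAK1 was low in both groups, with 8.35 ± 1.13 and 9.80 ± 0.45 CPM (SD, n = 3), and its groups overlapped. Groups also overlapped for the kinases JAK2 (log2 -0.11 ± 0.08) and TYK2 (0.03 ± 0.04) and for the receptor chains IFNAR1 (0.10 ± 0.05), IFNAR2 (0.09 ± 0.10), IFNGR1 (0.04 ± 0.07), IFNGR2 (-0.05 ± 0.06) and IL10RB (-0.03 ± 0.10). IRF1 (0.26 ± 0.15), IRF3 (0.09 ± 0.05) and IRF7 (0.19 ± 0.09), factors that drive interferon genes or their targets, were not called.

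**Figure D3:**
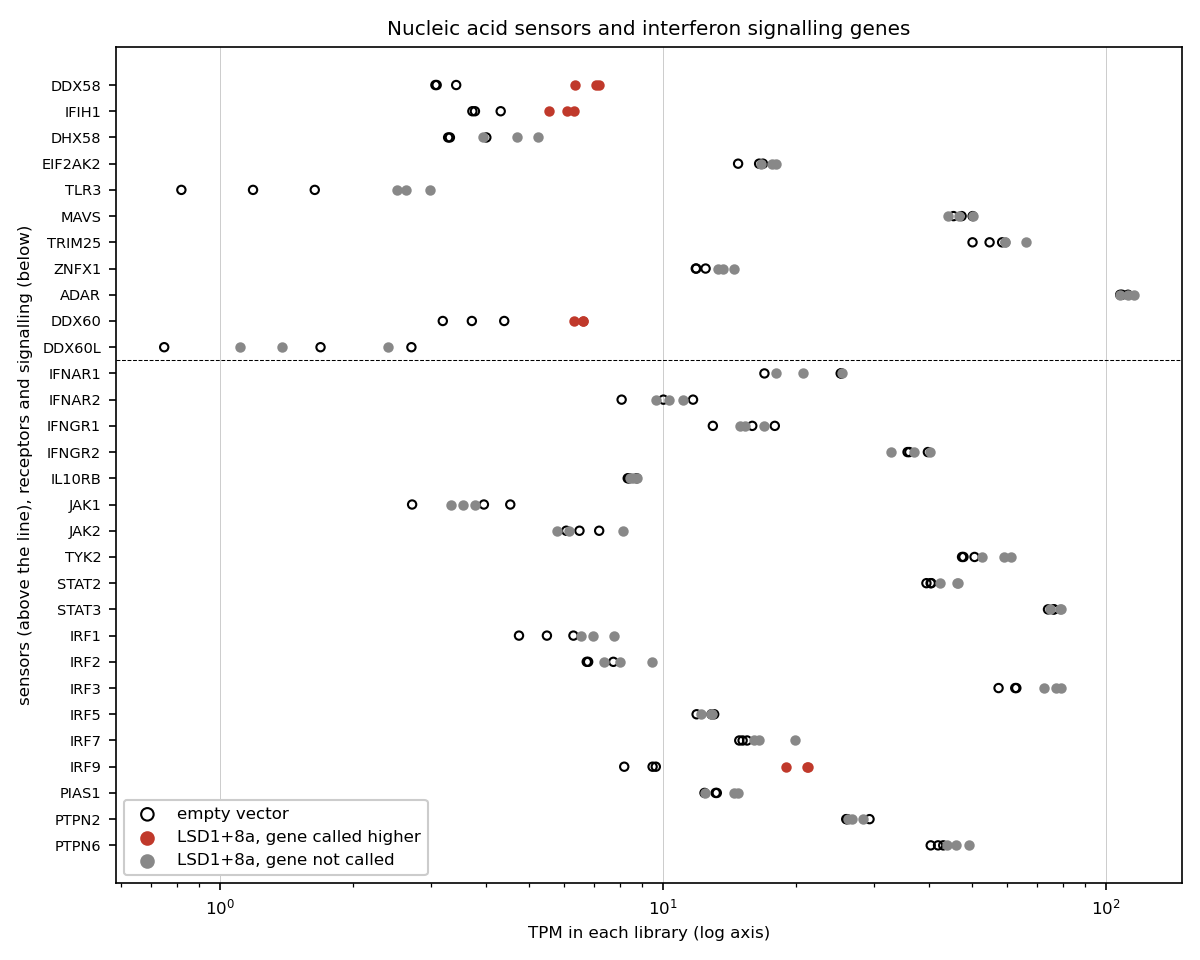
TPM in each library (log axis) for the 11 measured sensors and adaptors (above the dashed line) and 19 of the 20 measured receptor and signalling genes (below); open circles are empty vector and filled circles LSD1+8a, red where the gene was called higher from counts. DDX58, IFIH1, DDX60 and IRF9 carry red points; TPM of TLR3, TYK2, STAT2 and IRF3 also separate by group here, although their counts were not called.

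The remaining interferon lists held 3 calls. LGALS3BP, a secreted glycoprotein, measured 49.6, 50.8 and 53.7 CPM against 63.2, 62.0 and 69.3 CPM (log2 0.33 ± 0.05 SE, edgeR adjusted p = 0.00013). It was the only called gene of 3 measured secreted factors; TNFSF10, the death ligand TRAIL, had separate groups without a call (0.63 ± 0.21, edgeR adjusted p = 0.42). Of 21 PARP, nuclear body and helicase genes 2 rose. In this list 8 were higher and none lower at an unadjusted p under 0.05, against 467 and 419 of all 13001 genes. In 10 of the 21 every LSD1+8a library lay above every control, as it did in 6.12% of all genes. The list was chosen with results of these data known, so these counts describe it and test nothing. SAMD9, a brake on protein synthesis during poxvirus infection, rose by 1.01 ± 0.14, from 4.18, 3.5 and 4.19 CPM to 8.39, 8.01 and 7.46 CPM. HELZ2, a helicase and coactivator, rose by 0.28 ± 0.05 in counts, while its TPM overlapped, at 17.6 ± 1.11 and 18.8 ± 1.03 (SD, n = 3), and gave no call (0.09 on the log2(TPM + 1) scale, limma adjusted p = 0.86). PARP9, whose product works with DTX3L, missed the threshold (0.21 ± 0.05, edgeR adjusted p = 0.052), as did PARP14 (0.40 ± 0.17).

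Class I antigen presentation genes, many of them inducible by interferon, formed a list outside the interferon lists. Of 19 measured only B2M, the invariant light chain, was called. B2M measured 141, 143 and 153 CPM against 163, 171 and 163 CPM, a log2 rise of 0.19 ± 0.04 (edgeR adjusted p = 0.00639). That call was lost without empty-vector replicate 1 (adjusted p = 0.121), empty-vector replicate 2 (0.0535) or LSD1+8a replicate 2 (0.102). HLA-B (0.13 ± 0.05), HLA-C (0.09 ± 0.03), HLA-E (0.15 ± 0.06), the peptide transporter genes TAP1 (0.06 ± 0.06) and TAP2 (0.04 ± 0.05) and the transactivator NLRC5 (0.34 ± 0.12) were not called.

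Levels per transcript length ordered the 27 genes differently from their fold changes. In the LSD1+8a libraries ISG15 was highest at 254 ± 10.2 TPM (SD, n = 3), followed by IFITM3 at 228 ± 9.0 TPM and IFI6 at 182 ± 14.0 TPM. A wide gap separated these 3 from LGALS3BP at 48.2 ± 7.35 TPM and IFI27 at 40.0 ± 2.54 TPM, which did not differ beyond their spread. IFI44L and OAS2, with the largest fold changes, reached 4.55 ± 0.56 and 5.27 ± 0.69 TPM, and SAMD9 was lowest at 1.70 ± 0.23 TPM.

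Promoters of the rising genes were examined for the core of the interferon-stimulated response element, searched as GAAANNGAAA and as its reverse complement TTTCNNTTTC, which together cover both strands, in windows from 250 bases before to 50 bases after the start site (RefSeq promoter table, GRCh38.p14). Overlapping matches were counted separately. Of the rising genes 25 had an entry, and 18 of these (72%) held at least 1 match. Among rises in the interferon lists the count was 17 of 22 (77.3%), and among listed interferon genes that were not called it was 19 of 49 (38.8%). Over all tested genes with an entry it was 359 of 9739 (3.69%), and over every promoter listed 1255 of 35116 (3.57%). None of 5 falling genes with an entry held a match, and of 3 rises outside the interferon lists only B2M did. A match describes letters, not a bound site. KDM1A, OAS1, DDX58, HELZ2, HERC6, IRF9 and TRANK1 had entries without this string.

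Promoters of 6 genes that rose by more than 2-fold are printed to show where the matches lie, 5′ to 3′ on the gene's strand with the matched bases in capitals; in IFI27 the first of its start sites in the table is used.
ISG15 promoter (chr1:1013247-1013546, plus strand): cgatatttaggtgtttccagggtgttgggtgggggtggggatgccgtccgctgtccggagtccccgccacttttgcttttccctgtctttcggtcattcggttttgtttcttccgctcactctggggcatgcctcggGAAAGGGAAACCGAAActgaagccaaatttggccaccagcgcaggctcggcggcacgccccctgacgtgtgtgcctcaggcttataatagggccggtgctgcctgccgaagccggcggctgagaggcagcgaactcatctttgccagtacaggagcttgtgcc
IFIT1 promoter (chr10:89392373-89392672, plus strand): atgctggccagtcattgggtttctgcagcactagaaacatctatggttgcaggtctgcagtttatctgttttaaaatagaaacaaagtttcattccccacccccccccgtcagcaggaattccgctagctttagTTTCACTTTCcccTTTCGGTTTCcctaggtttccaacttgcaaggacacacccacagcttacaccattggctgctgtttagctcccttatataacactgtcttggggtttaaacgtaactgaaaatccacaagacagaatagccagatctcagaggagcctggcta
IFI27 promoter (chr14:94110486-94110785, plus strand): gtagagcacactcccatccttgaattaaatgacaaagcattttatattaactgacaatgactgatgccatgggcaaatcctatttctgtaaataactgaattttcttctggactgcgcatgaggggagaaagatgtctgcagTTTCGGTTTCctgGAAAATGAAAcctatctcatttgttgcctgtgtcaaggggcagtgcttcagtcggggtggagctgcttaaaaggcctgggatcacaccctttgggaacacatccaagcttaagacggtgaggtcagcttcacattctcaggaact
IFI6 promoter (chr1:27672143-27672442, minus strand): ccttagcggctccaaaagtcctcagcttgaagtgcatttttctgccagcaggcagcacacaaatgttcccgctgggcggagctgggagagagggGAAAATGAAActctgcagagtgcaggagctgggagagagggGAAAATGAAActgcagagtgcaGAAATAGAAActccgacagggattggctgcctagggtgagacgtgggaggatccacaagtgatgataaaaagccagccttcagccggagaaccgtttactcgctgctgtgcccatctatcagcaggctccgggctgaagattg
IFI44L promoter (chr1:78620198-78620497, plus strand): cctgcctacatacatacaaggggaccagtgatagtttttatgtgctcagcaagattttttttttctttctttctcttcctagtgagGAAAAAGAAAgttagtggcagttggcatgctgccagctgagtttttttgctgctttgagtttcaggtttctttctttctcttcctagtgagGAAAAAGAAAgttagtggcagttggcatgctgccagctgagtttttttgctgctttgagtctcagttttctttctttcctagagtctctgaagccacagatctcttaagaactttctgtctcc
IFITM1 promoter (chr11:313790-314089, plus strand): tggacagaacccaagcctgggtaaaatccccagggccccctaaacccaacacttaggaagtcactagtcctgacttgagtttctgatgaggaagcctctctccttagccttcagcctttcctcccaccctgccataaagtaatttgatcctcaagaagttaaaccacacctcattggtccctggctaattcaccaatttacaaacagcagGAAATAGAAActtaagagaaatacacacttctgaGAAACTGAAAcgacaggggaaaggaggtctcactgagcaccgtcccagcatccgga
In ISG15 the first bases of the overlapping matches lay 113 and 107 bases before the start site, and in IFI27 108 and 95; in IFIT1 the nearer of 2 matches began 103 bases before it. IFI6 held 3 matches, at 156, 115 and 93 bases before the start. IFI44L held matches at 164 and 73 bases, and IFITM1 at 40 and 6 bases before the start.

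Several rising genes lie next to each other. In the gene order of GRCh38.p14, 33 of the 37 rises could be placed and 11 of these had a rising direct neighbour. The share over all genes was not worked out, and each run holds related genes, so the count describes these genes only. The runs were OAS1, OAS3 and OAS2 on chromosome 12, IFIT2 and IFIT3 on chromosome 10, IFI44L and IFI44 on chromosome 1, HERC6 and HERC5 on chromosome 4, and IFITM3 with IFITM1 on chromosome 11. In 32 tested neighbours no call was made. Among them were HES4 and AGRN on either side of ISG15 (log2 fold changes -0.16 and 0.02), IFI27L1 beside IFI27 (-0.20), and LUZP1 beside KDM1A (0.01).

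Of the rises outside the interferon lists, CLU was the largest after KDM1A among genes with a full symbol. CLU encodes clusterin, a secreted chaperone linked to survival of prostate cancer cells. It measured 11, 12.2 and 14.3 CPM with empty vector and 36.6, 25.4 and 24.2 CPM with LSD1+8a, so LSD1+8a replicate 1 stood above its partners. The log2 fold change was 1.2 ± 0.17 (SE, edgeR adjusted p = 0.0129). The call was lost without empty-vector replicate 1 (adjusted p = 0.0909), without empty-vector replicate 2 (0.154) and in a fit of the 6 libraries alone (0.357). RARRES3, a phospholipase that restrains growth, rose by 0.90 ± 0.16, from 3.47, 3.58 and 3.65 CPM to 7.19, 6.98 and 5.74 CPM. TRANK1, a large helicase-domain gene, rose by 0.61 ± 0.11, with an adjusted p of 0.0503 without LSD1+8a replicate 3.

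The remaining rises outside the interferon lists, apart from B2M given above, each lost their call in some alternative runs. HSH2D, an adaptor of immune cells, rose by 0.48 ± 0.11 on the log2 scale, and its adjusted p exceeded 0.05 without any of 5 single libraries (0.0646 to 0.383) and was 0.35 in DESeq2. TRGC1, a T-cell receptor gamma constant gene whose locus also yields a prostate transcript, rose by 0.38 ± 0.08, from 20.3, 19.4 and 20.3 CPM to 28.5, 25.9 and 23.7 CPM. Its adjusted p was 0.0663 without empty-vector replicate 2, 0.107 without LSD1+8a replicate 1 and 0.0735 in DESeq2, and reads shared with its near copy could not be separated. The pseudogene CYP4F30P, which resembles other CYP4F genes, rose by 0.51 ± 0.10, with adjusted p of 0.0734, 0.0524 and 0.166 without empty-vector replicate 1, empty-vector replicate 2 and LSD1+8a replicate 3, and 0.0702 in DESeq2. The last 2, AC018865.8 and RP11-514P8.6, have clone names only and were looked at after their values were seen. RP11-514P8.6 rose by 1.47 ± 0.28 (adjusted p 0.0644 without empty-vector replicate 1 and 0.0591 without LSD1+8a replicate 3) and was the only rise whose estimate was below that of the LSD1 libraries (-0.52 against LSD1). AC018865.8 rose by 0.27 ± 0.06 and lost its call without any single library of the 6 (adjusted p 0.09 to 0.194) and in DESeq2 (0.361).

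Of the 8 falls, ZNF395 and MT-CO1 kept their call whichever of the 6 libraries was left out, and the other 6 did not. MIR210HG, the host transcript of the hypoxia-induced miR-210, measured 8.60, 10.1 and 7.91 CPM with empty vector and 5.39, 6.58 and 6.31 CPM with LSD1+8a. The groups did not overlap (log2 fold change -0.54 ± 0.13 SE, edgeR adjusted p = 0.0457), but the adjusted p exceeded 0.05 without any of 5 single libraries (0.0668 to 0.43), in DESeq2 (0.35) and in limma-voom (0.0556). ZNF395, a hypoxia-responsive transcription factor gene, measured 50.4, 49.5 and 46.0 CPM against 41.6, 34.8 and 38.5 CPM and fell by 0.34 on the log2 scale (SE 0.06). KDM3A, a histone H3 lysine 9 demethylase induced by HIF-1, measured 73.2, 68.6 and 63.1 CPM against 57.8, 57.6 and 49.9 CPM and fell by 0.31 (SE 0.06). For KDM3A the adjusted p was 0.0909 without empty-vector replicate 1 and 0.0858 without LSD1+8a replicate 3. Without LSD1+8a replicate 1 the number of falls was 24, and without empty-vector replicate 1 or 2 it was 3 or 5. Removing a library leaves 2 in its group.

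The hypoxia and glycolysis list, to which those 3 genes belong, had 46 measured members: 3 fell, none rose, and 40 estimates were below 0, against 6446 of 13001 for all genes. The median log2 fold change was -0.05. Of all genes 0.0615% were called lower. At an unadjusted p under 0.05, 9 members were lower and none higher, against 419 lower and 467 higher of all 13001 genes. This list too was chosen with results of these data known, so its counts describe it and test nothing. SLC2A1, the glucose transporter GLUT1, stood at 72.9, 75.7 and 72.0 CPM against 60.4, 68.6 and 64.1 CPM without a call (-0.19 ± 0.05, edgeR adjusted p = 0.095). HIF1A itself (-0.03 ± 0.04) and the glycolytic genes GAPDH (-0.06 ± 0.03), ENO1 (-0.08 ± 0.04), LDHA (-0.05 ± 0.05) and PGK1 (-0.05 ± 0.09) were not called. The growth factor gene VEGFA, a widely used hypoxia marker, had overlapping groups (-0.07 ± 0.09).

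**Figure D4:**
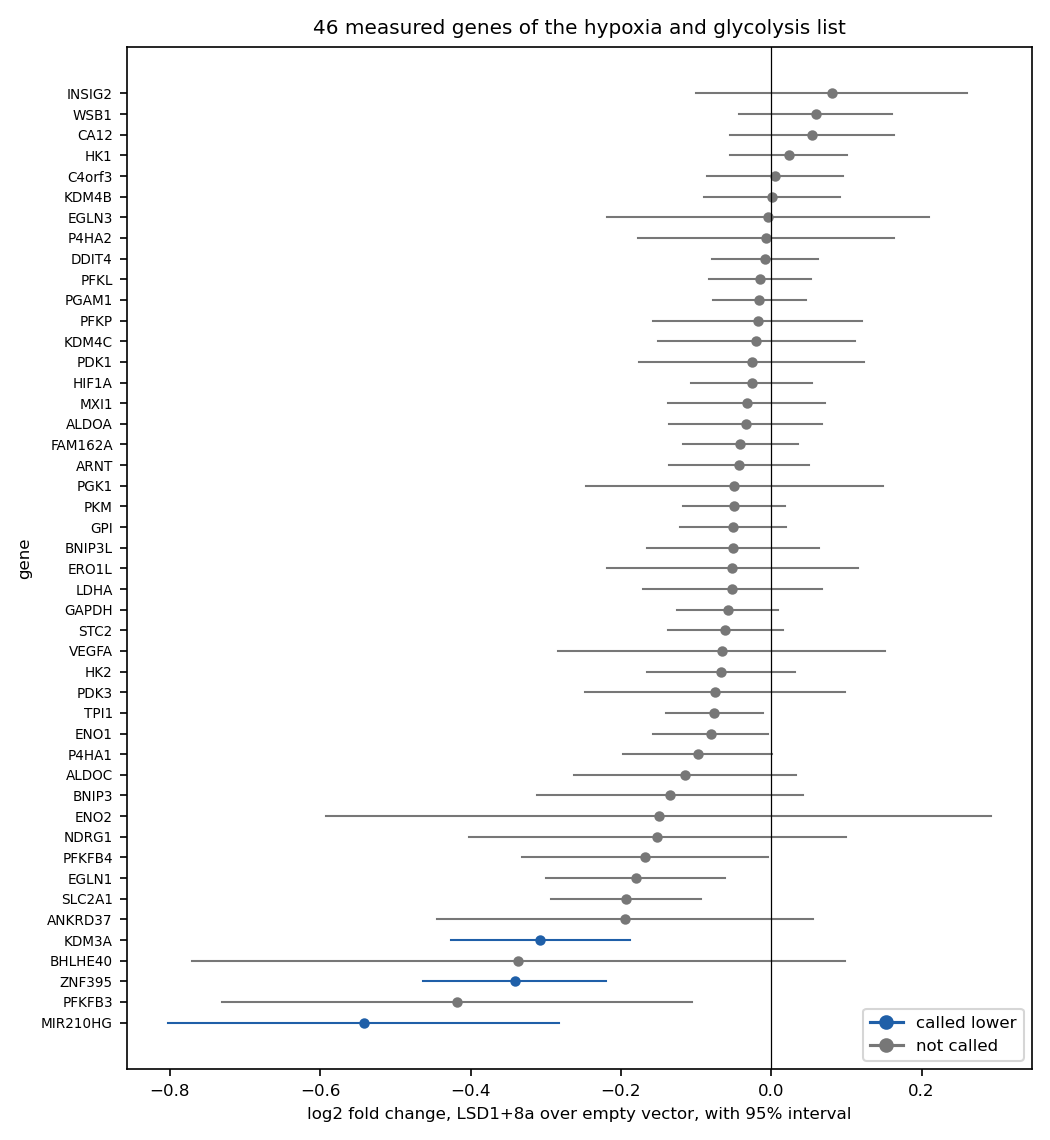
Log2 fold change of LSD1+8a over empty vector with its 95% interval for the 46 measured genes of the hypoxia and glycolysis list, 1 row a gene, sorted by size. Most estimates (40 of 46) lie left of 0, and the 3 called genes KDM3A, ZNF395 and MIR210HG (blue) are at -0.31, -0.34 and -0.54.

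The other 5 falls were not in the hypoxia list. MT-CO1, a mitochondrially encoded subunit of cytochrome c oxidase, measured 14193, 13537 and 13261 CPM against 12043, 11706 and 11720 CPM and fell by 0.21 (SE 0.03, edgeR adjusted p = 0.000383). Among 15 mitochondrial genes it was the only one called, but 14 estimates were below 0 and 9 were lower at an unadjusted p under 0.05. Of all 13001 genes, 6446 estimates were below 0 and 419 were lower at that p. MT-CO1 stood at 11982, 12223 and 11121 CPM in the LSD1 libraries, and LSD1+8a did not differ from LSD1 (log2 0.01, edgeR adjusted p = 0.999). The empty-vector libraries were thus the high ones, as they were for the mitochondrial share of counts given above, and the part of that share in this fall was not tested. CD2AP, an adaptor of the actin cytoskeleton, fell by 0.18 (SE 0.04) and was likewise level with LSD1 (log2 -0.00, edgeR adjusted p = 0.999). MAP1B, a microtubule-associated protein of neurons, fell by 0.15 (SE 0.03). Both CD2AP (adjusted p 0.0621 to 0.276, each of 6 libraries) and MAP1B (0.0514 to 0.207, any of 5) lost the call when a single library was left out. DESeq2 did not call CD2AP (adjusted p = 0.29), and on the log2(TPM + 1) scale the differences were -0.05 for CD2AP and -0.06 for MAP1B. The read-through gene HNRNPUL2-BSCL2 fell by 0.18 (SE 0.04), with adjusted p of 0.126 without empty-vector replicate 3 and 0.266 without LSD1+8a replicate 2. Its parts HNRNPUL2 (0.05) and BSCL2 (0.00) were not called, and reads shared by the overlapping models cannot be told apart. RP11-575L7.8, known by its clone name and looked at after its values were seen, was the only fall above 2-fold. It measured 3.24, 2.61 and 1.90 CPM against 0.97, 1.19 and 0.98 CPM (-1.29 ± 0.25), with an adjusted p of 0.0972 without empty-vector replicate 1 and 0.0691 in DESeq2.

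Set against the LSD1 libraries, 27 genes were higher with LSD1+8a (0.208% of genes tested) and 15 lower (0.115%). Of the 37 rises over empty vector, 26 were also higher than with LSD1, and 36 estimates pointed upward. The LSD1+8a libraries are the same in both comparisons, which ties the counts together. The largest differences from LSD1 in called interferon genes were in IFI44L (log2 2.10), IFIT3 (1.82) and OAS2 (1.66). ISG15 stood at 62.2, 65.1 and 62.9 CPM in the LSD1 libraries, between the other groups without overlap, and was 0.75 ± 0.04 higher with LSD1+8a (SE, edgeR adjusted p = 1.62e-14). IFIH1 (0.39, edgeR adjusted p = 0.119), IFI44 (0.47, 0.253), TRIM22 (0.66, 0.42) and HELZ2 (0.18, 0.139) were not called between LSD1+8a and LSD1. KDM1A was also 2.07 ± 0.10 higher on the log2 scale with LSD1+8a than with LSD1 (edgeR adjusted p = 1.54e-05). The amount of transcript and the presence of the microexon therefore cannot be told apart in this comparison.

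Of the falls, MIR210HG, KDM3A, ZNF395 and RP11-575L7.8 were also lower than with LSD1. MIR210HG stood at 10.8, 11 and 10.2 CPM in the LSD1 libraries, above all LSD1+8a libraries (log2 difference -0.81 ± 0.13 SE, edgeR adjusted p = 0.000144). In the hypoxia and glycolysis list 7 of 46 members were lower with LSD1+8a than with LSD1 and none was higher. Of all genes 0.115% were lower in that comparison. The list's median log2 fold change over empty vector was 0.05 with LSD1 and -0.05 with LSD1+8a. Beside the 3 falls, the members lower than with LSD1 were PFKFB4 (-0.42), EGLN1 (-0.29), SLC2A1 (-0.24) and HK2 (-0.21), named after their values were seen. HK2, the first enzyme of glycolysis in many tumours, had the weakest of these calls (edgeR adjusted p = 0.042). EGLN1 encodes the oxygen-sensing prolyl hydroxylase of HIF, and PFKFB4 a regulator of glycolytic flux. PFKFB4 measured 40.8, 36.0 and 39.7 CPM with LSD1 against 30.9, 31 and 25.3 CPM with LSD1+8a, without overlap. Against empty vector, PFKFB4, EGLN1, SLC2A1 and HK2 were not called.

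The SRRM4 libraries differed from the LSD1+8a libraries at many more genes, 412 higher with LSD1+8a (3.17%) and 574 lower (4.42%). Among the 37 rises, 13 were higher with LSD1+8a than with SRRM4, 4 were lower and 20 were not called. Those 37 genes were picked for their level in the LSD1+8a libraries, which tilts these counts toward LSD1+8a. Over all 93 measured interferon-list genes, 8 were higher with LSD1+8a than with SRRM4 and 8 were lower. The median log2 fold change of the 93 over empty vector was 0.17 with LSD1+8a and 0.19 with SRRM4. IFI27 stood at 7.98, 8.18 and 6.32 CPM with SRRM4, below every LSD1+8a library (log2 difference 0.76 ± 0.12 SE, edgeR adjusted p = 7.43e-05). BST2 (0.78), IFI44L (0.79), DDX58 (0.44), IRF9 (0.47) and IFI6 (0.42) were also higher with LSD1+8a. The 4 of the 37 rises that were lower with LSD1+8a than with SRRM4 were RSAD2 (-1.28), TRANK1 (-0.78), TRIM22 (-0.63) and IFIT2 (-0.41). RSAD2 reached 16.8, 17.7 and 16.9 CPM with SRRM4, more than 2-fold its level with LSD1+8a. ISG15, at 102, 104 and 104 CPM with SRRM4, was not called between the groups (0.05 ± 0.04), and neither were IFIT1 (0.17), OASL (0.16) and IFITM3 (0.04). Of the falls, MAP1B (-0.30) and RP11-575L7.8 were lower with LSD1+8a than with SRRM4.

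All transfections were compared with the same 3 empty-vector libraries, so their fold changes share that error, and their values are given only side by side. LSD1 against empty vector called 6 genes higher (0.0462%) and 7 lower (0.0538%) in all, and SRRM4 against empty vector 581 higher (4.47%) and 418 lower (3.22%). Of the 93 interferon-list genes, 27 were called higher with LSD1+8a, 3 with LSD1 and 36 with SRRM4, and none was called lower with any plasmid. Over the 27 genes that rose with LSD1+8a, the mean log2 level relative to the empty-vector mean was 1.31, 1.18 and 1.24 in the LSD1+8a libraries. In the SRRM4 libraries it was 1.08, 1.17 and 1.08, and in the LSD1 libraries 0.37, 0.42 and 0.23. Those 27 genes were picked for their level in the LSD1+8a libraries. KDM1A did not pass the test between SRRM4 and empty vector (log2 0.03 ± 0.13 SE, edgeR adjusted p = 0.937). Of 15 mitochondrial genes, 1 was lower with LSD1+8a, 7 with LSD1 and 8 with SRRM4. Of 46 hypoxia and glycolysis genes, 3, 0 and 4 were lower.

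**Figure D5:**
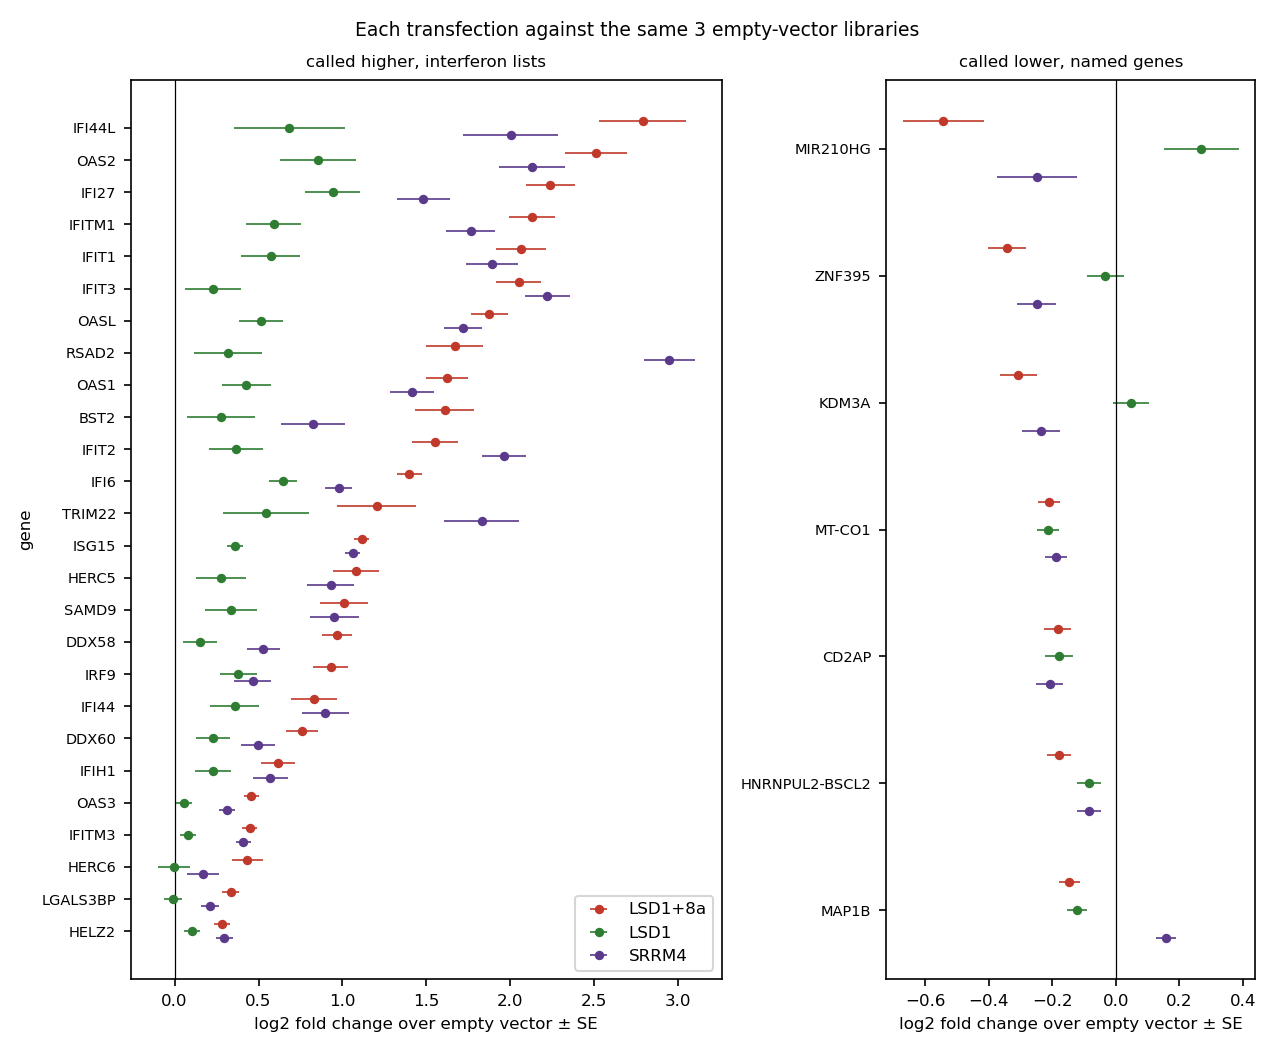
Log2 fold change ± SE over the shared empty-vector libraries for LSD1+8a, LSD1 and SRRM4, in 26 of the 27 rising interferon-list genes (left) and the 7 falling genes with full symbols (right). LSD1 points lie left of LSD1+8a points in the left panel, RSAD2 is further right with SRRM4 (2.95) than with LSD1+8a (1.67), and MT-CO1 is alike in all 3.

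Few genes were called in other programmes that the plasmid could touch. As 0.285% of all genes were called higher and 0.0615% lower, a count of 0 in a list of this length does not set it apart from all genes. In each of these lists no gene was called between LSD1+8a and empty vector: 17 LSD1-CoREST complex genes, 11 Polycomb repressive complex 2 genes, 22 REST targets, 9 neuroendocrine prostate cancer markers, 28 androgen-responsive genes, 31 p53 targets, 40 mitotic genes and 36 replication genes. The same held for 16 NF-kB targets, 15 genes of double-stranded RNA processing and silencing, 30 unfolded-protein genes, 19 heat shock and NRF2 genes, 15 immediate early genes and 29 sterol and fatty acid synthesis genes. The median log2 fold changes of these lists lay between -0.07 and 0.02. At an unadjusted p under 0.05, 6 of the 40 mitotic genes were lower and none higher, against 419 lower and 467 higher of all 13001 genes. Of these mitotic genes 29 estimates were below 0. Every LSD1+8a library lay below every control in 5.64% of all genes and above in 6.12%. That held for 7 and 1 of the mitotic genes. KIF20A, a mitotic kinesin, had the lowest p among them (log2 -0.15 ± 0.05 SE, edgeR adjusted p = 0.332), and MKI67, the gene of the proliferation marker Ki-67, stood at -0.08 ± 0.03. Of the 30 unfolded-protein genes 3 were lower and none higher at that p. In the other lists named here at most 3 genes passed it in either direction. RCOR1, the CoREST scaffold of LSD1, stood at 65.1 ± 1.19 CPM with empty vector and 64.1 ± 2.37 CPM with LSD1+8a (SD, n = 3), and HDAC1 at 192 ± 4.19 and 185 ± 5.92 CPM. Of 20 other histone demethylase genes KDM3A alone was called; the closest relative of KDM1A, KDM1B, was level (log2 -0.04 ± 0.06). Of 46 genes that host neural microexons KDM1A alone was called. In the REST list 14 of 22 genes were called higher with SRRM4, and with LSD1+8a the 3 members with an unadjusted p under 0.05 were all lower, MAPK8IP2 (-0.21 ± 0.08), CELSR3 (-0.21 ± 0.09) and DNAJC6 (-0.35 ± 0.17). The median SE of a log2 fold change was 0.07 over all genes, 0.05 for genes with an average log2 CPM above 5 and 0.21 for those below 2, so small changes of low genes were not detectable.

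The authors' deposited table of LSD1+8a against empty vector, which carries the name of DESeq2, marks 44 genes at an adjusted p under 0.05, 35 higher and 9 lower. The DESeq2 alternative run here also called 35 higher and 9 lower. Its adjusted p equalled the deposited one for ISG15 (3.13e-78), OASL (8.81e-34) and TRIM22 (0.0465), so it is not a check separate from that table. A share of 84.1% of the calls in the authors' deposited table was also called by edgeR, and of the edgeR calls 82.2% were in it, 37 genes in all with the same direction. CRYAB, a small heat shock protein gene, is called in the authors' deposited table (log2 0.89, adjusted p = 0.0241). It was not called here (0.89, edgeR adjusted p = 0.357). The largest fold change among the calls in the authors' deposited table (log2 7.93) belongs to a gene with a clone name that had 0 counts in at least 1 of the 6 libraries.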

How the data were processed

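Gene-level counts for 12 libraries (4 groups of 3) were deposited as whole numbers, per the file headers, and used as deposited. A deposited table held TPM, scaled by the authors to gene length and depth, per the file headers. The authors' deposited comparison table held log2 fold changes, p-values and adjusted p-values, and its name gives DESeq2. Per the submitters' processing notes, the tools were STAR 2.5.3a and RSEM 1.2.31 and the genome was hg19, with no role given. How shared reads were divided is not given in the sources used here.

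Counts were scaled by TMM. filterByExpr removed 0 of 13001 genes. All 4 groups and 12 libraries entered 1 model in edgeR 4.0.16 (R 4.3.3), tested by quasi-likelihood with robust dispersions, and p-values were adjusted over all genes by Benjamini and Hochberg, with calls under 0.05. The biological coefficient of variation was 2.98%. CPM use TMM-scaled totals. TPM served for levels between genes. Library totals were 12110101 to 13570740 counts in the 6 libraries compared. The procedure was tested on simulated data. Each library counted once. Replicate pairs differed by more than sampling noise (chi-square per degree of freedom 1.55 to 2.88), which cannot show whether they came from separate cultures or transfections.

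Samples were grouped by their titles. The fit has no block for replicate number. Named genes were KDM1A, every called gene with a full symbol, the measured members with the lowest p in each list described (4 at most), and all measured sensors and receptor and signalling genes. Other genes were named after their values were seen. The members and lists were chosen with earlier results of these data known. Alternatives were DESeq2 1.42.0, limma 3.58.1 (voom on counts, and trend on log2 of TPM plus 1 or 0.1), other scalings and filters, KDM1A removed before scaling, a replicate block, the 6 libraries alone, and leaving out each library. Table symbols matched RefSeq (GRCh38.p14) as current symbols for 11106 genes and as synonyms for 932, and 963 were not matched. No coordinates of the hg19 files were used. Some genes and sequences covered by these rules are not reported here.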

Additional observations from a re-analysis of the deposited data

How the results depend on the processing

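None of the 45 called genes changed direction under any alternative, and 18 of them, all rises, kept their call under all 17. KDM1A kept it under the 16 that could be run for it, and no fall kept its call under all. With LSD1+8a against empty vector, limma-trend on TPM called 23 genes higher, 1 lower and 17 interferon-list genes at either pseudocount, with 21 and 1 of the calls shared. Among the 10 interferon-list genes it lost were DDX60, HELZ2, HERC6, IFI44, IFIH1, LGALS3BP, OAS3, RSAD2 and TRIM22. The fit of the 6 libraries alone called 5 lower. Leaving out a single library gave 30 to 42 genes higher, 3 to 24 lower and 25 to 27 interferon-list genes. Only 6 of the 24 falls without LSD1+8a replicate 1 were among the 8. Against LSD1, DESeq2 called 7 lower and leaving out a library gave 6 to 16. Against SRRM4, DESeq2 called 203 higher and 319 lower, and leaving out a library gave 220 to 416 higher and 341 to 590 lower. The cause was not tested. With the other scalings of counts the median log2 fold change of all genes was 0.00103 (RLE) and -0.00143 (upper quartile), against 0.000915 in the main fit. In the fits of log2 TPM it was 0.03 at either pseudocount. Same-numbered libraries were not treated as pairs in the main fit. Their deviations from the group means correlated at 0.06, -0.02 and -0.11 over 8857 genes, and 1 of 6 libraries correlated best with its own number. The labels do not say whether same-numbered libraries were handled together, and these correlations cannot show it. With the replicate number as a block, 36 genes were higher and 7 lower, 35 and 6 of them shared, with 27 interferon-list genes. HSH2D, AC018865.8, CD2AP and MIR210HG were not called with the block.

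With 3 libraries a group of unknown independence, 1 cell line and 1 transfection protocol, small changes in low genes were below detection.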

Other observations

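A small group of genes differed between LSD1+8a and LSD1 without a call against empty vector: 1 was higher with LSD1+8a and 11 were lower, all picked out after their values were seen. The higher one, SRSF5, a splicing factor gene, stood at 199, 203 and 210 CPM with LSD1+8a and 181, 187 and 183 CPM with LSD1, without overlap (log2 difference 0.15 ± 0.03 SE, edgeR adjusted p = 0.029). PPFIA4, which encodes a liprin of synaptic scaffolds and hosts a neural microexon, was lower at 9.88, 13.1 and 10.7 CPM against 20.9, 17.6 and 18.2 CPM (-0.76 ± 0.15, edgeR adjusted p = 0.042). PPP1R3B, a subunit that brings protein phosphatase to glycogen, was lower at 30.3, 30.5 and 29.6 CPM against 37.7, 36.6 and 37.2 CPM (-0.30 ± 0.06). The empty-vector libraries lay between these groups for PPP1R3B, at 32.9, 34.3 and 36.7 CPM apart from a narrow overlap with LSD1. GCSH, a component of the glycine cleavage system, was -0.26 ± 0.06 against LSD1 and -0.05 against empty vector. C4orf48, a small secreted neuropeptide gene, was -0.44 ± 0.10 against LSD1 and -0.28 against empty vector.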
